A study of Mus musculus with 6 samples.

Results

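The comparison set the testes of 1 litter of mice against those of a second litter, with the genotype held fixed. All 6 arrays of the study belong to it, 3 in each litter, and the litter of each mouse was taken from its label. Litter 1 held 3 mice, 1 with both H3f3b alleles intact (WT), 1 with 1 allele deleted (HET) and 1 with both deleted (KO), and litter 2 held 1 mouse of each of the same genotypes. The H3f3b deletion was constitutive. It came from a floxed allele crossed to Zp3Cre, a Cre that is active in the growing oocyte, and heterozygotes were then intercrossed. All 6 mice were labelled C57BL6J. RNA came from 1 testis per mouse and was measured on 1 Illumina bead array per mouse. The age field reads E12.5, but the design text and the samples' source names put all 6 mice at 8 weeks. The protamine gene Prm1, expressed in post-meiotic spermatids, had log2 levels between 15.33 and 15.50 on the 6 arrays.

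H3f3b encodes the replication-independent histone H3.3, which replaces canonical H3 in chromatin outside S phase. Littermates share a dam, a birth date and usually a cage, so a litter carries shared conditions that genotype does not. The testis holds germ cells at all stages, Sertoli cells that nurse them, Leydig cells that make testosterone, and vessels, macrophages and connective tissue. It is dissected away from the epididymis, its fat pad and the accessory glands, among them the seminal vesicles. In bulk RNA of this kind fewer cells of a type and less RNA per cell cannot be told apart. With 1 litter on each side, a difference describes these litters, and litter cannot be told apart from anything else the mice of a litter shared, such as handling. The tests measure the spread between genotype pairs.

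The genotype labels were checked on H3f3b itself. On its brighter probe the log2 normalized signal was 11.78 in WT, 11.10 in HET and 4.43 in KO of litter 1, and 11.73, 10.96 and 4.28 in litter 2. A dim second probe read 4.72, 4.36 and 4.23 in litter 1 and 5.24, 4.39 and 4.22 in litter 2, and was detected in the WT mice alone. Both KO mice lay at the undetected level. The brightest probe of H3f3a, the other gene for H3.3, differed between litters by 0.00 on the log2 scale (SE 0.10). The summed deposited signal ran from 15427284 to 17674449 per array, and 19809 to 21323 of 45281 probes were detected at a p under 0.05. Probes detected on all 3 arrays of a litter numbered 18413 in litter 1 and 18021 in litter 2. Together they made 19014 probes on 13535 named genes, of which 993 passed only through litter 1 and 601 only through litter 2. A probe that passed through 1 litter alone was undetected on at least 1 array of the other. This favours a lower level there without fixing the direction. Kdr, for example, passed through litter 2 alone and had a difference, litter 2 minus litter 1, of -0.01. H3f3b did not pass, since it is undetected in KO.

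No transcript passed the test for a litter difference. Each probe was fitted with litter and genotype as terms, and the litter term was called at a limma adjusted p under 0.05. This gave 0 of 19014 probes (0%), with a smallest adjusted p of 0.238. At an unadjusted p under 0.05 there were 2013 probes, where 950.7 would arise by chance, 1010 of them higher in litter 2 (5.31%) and 1003 lower (5.28%). The genotype term of the same fit called 621 probes (3.27%) at the same threshold. The count for litter ranged from 0 to 64 under the other settings tried, described further on. At the median standard error of 0.110, the 95% interval of a litter difference reaches 0.256 to either side before any adjustment over probes, and the adjusted test left much larger differences uncalled.

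Over the whole profile litter held a smaller share of the variation than genotype. Of the squared deviations summed over all probes, genotype held 61% with 2 degrees of freedom, litter 17.1% with 1, and the residual 21.9% with 2. Per degree of freedom the mean squares were 0.0798 for genotype, 0.0446 for litter and 0.0287 for the residual. The second principal component, 17.2% of the variance, placed the litter 1 mice at 8.85 (WT), 13.83 (HET) and 9.41 (KO), and the litter 2 mice at -15.47, -0.54 and -16.08. All 3 litter 1 mice thus lay above all 3 litter 2 mice on it, with the HET mouse of litter 2 the nearest to litter 1. The litter differences of single pairs had little in common, with a correlation across probes of 0.120 between the WT and HET pairs, 0.157 between WT and KO, and 0.191 between HET and KO. Probes are not independent replicates, and all 3 pairs went through 1 joint normalization. In all 3 genotypes 3255 probes (17.1%) were higher in litter 2 and 3253 (17.1%) lower. All 3 arrays of litter 2 lay above all 3 of litter 1 for 685 probes (3.6%) and below for 1041 (5.47%).

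The transcript with the largest difference shared by all pairs was Cfd. It encodes adipsin, or complement factor D, a serine protease secreted mainly by fat cells. Its log2 level was 7.89 in WT, 8.14 in HET and 7.37 in KO of litter 1, and 6.75, 6.76 and 5.29 in litter 2. All 3 mice of litter 1 lay above all 3 of litter 2. The difference, litter 2 minus litter 1, was -1.54 (SE 0.17, 95% interval -1.94 to -1.13, n = 3 pairs), with a limma adjusted p of 0.238. It passed under 5 of 13 other settings (limma adjusted p from 2.87e-06 to 0.00119) and not under the other 8 (0.0928 to 1), with a difference between -1.73 and -0.93 throughout. Cfd was also the single probe of 19014 past 2-fold in each of the 3 pairs.

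Other genes expressed in fat did not all follow it. Lpl, lipoprotein lipase, read 6.78, 7.06 and 6.59 in WT, HET and KO of litter 1 and 6.30, 5.82 and 5.76 in litter 2, again without overlap, a difference of -0.85 (SE 0.15, limma adjusted p = 0.39). Car3, the carbonic anhydrase abundant in fat and muscle, read 5.14, 5.76 and 4.97 against 5.03, 4.31 and 4.19, so its groups overlapped. It was detected on 1 array of litter 2 and was kept through litter 1 alone, which favoured a lower level in litter 2. Adipoq, which encodes the fat-cell hormone adiponectin, read 8.97, 8.73 and 8.29 against 9.01, 8.92 and 8.19, with overlapping groups and a difference of 0.05. Of the 14 genes listed for fat tissue 7 were measured, 0 passed the test, 3 were lower in litter 2 in all 3 genotypes and 0 higher, and their median difference was -0.18 against 0.001 over all genes. The 7 include Cfd itself, and the 3 lower genes were Cfd, Lpl and Car3. Of these 7, Car3 and Lep were kept through litter 1 alone. The summed linear level of the 7, Cfd included, was 828.5 to 1057 in litter 1 and 567.4 to 904.8 in litter 2. The fat-cell markers Fabp4, Plin1, Cidec, Pck1 and Ucp1 were detected on none of the 6 arrays. The part of fat tissue in the Cfd difference was not tested.

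Ccl21a and Angptl7 were also among the genes with the smallest p and a lower level in litter 2. Ccl21a, whose product draws lymphocytes and dendritic cells that carry CCR7, read 6.78, 6.52 and 6.45 in litter 1 and 6.24, 5.81 and 5.43 in litter 2. The litters did not overlap, and the difference was -0.76 (SE 0.12, limma adjusted p = 0.39). The Ccl21 copies are nearly identical, so their probes cannot be told apart with certainty, and the 4 kept probes had differences from -0.76 to -0.56. Their pair medians were -0.14 in WT, -0.86 in HET and -0.91 in KO. Angptl7, a secreted angiopoietin-like protein, read 7.83, 6.26 and 5.99 against 6.95, 5.53 and 5.0, a difference of -0.87 (SE 0.10, limma adjusted p = 0.238). Its litters overlapped because the level also depended on genotype (limma adjusted p = 0.00459), but every litter 2 mouse lay below its litter 1 partner of the same genotype. The other kept Angptl7 probe had a difference of -0.33.

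The remaining genes with the smallest p and a lower level in litter 2 were MGC58177 (-0.85), D130052N13Rik (-0.82), LOC381625 (-0.74), Dchs1 (-0.72), Upk3bl (-0.68), Rom1 (-0.58), Mrps15 (-0.57) and C630015B10Rik (-0.53), each a log2 difference with a limma adjusted p of 0.39. Dchs1 encodes a large protocadherin, Mrps15 a protein of the mitochondrial ribosome and Rom1 a tetraspanin of photoreceptor discs. Dchs1 was not detected on any array of litter 2, so its fold is a bound of at least 1.4-fold. C630015B10Rik was detected on 1 array of litter 2, and both it and Dchs1 were kept through litter 1 alone. A pair of probes outside the naming rule, chosen after their values were seen, had p-values as small. The dimmer of the 2 kept probes of Pisd-ps3, a pseudogene, read 7.76, 8.17 and 8.62 in litter 1 and 6.94, 7.26 and 7.76 in litter 2, a difference of -0.87 (SE 0.10, limma adjusted p = 0.238). It had the smallest unadjusted p of the fit, 2.99e-05, and the brighter probe had a difference of -0.26. A dim probe of Ide, the insulin-degrading enzyme, was not detected on any array of litter 2 and was kept through litter 1 alone, so its fold is a bound of at least 1.58-fold (limma adjusted p = 0.238). The other 2 kept Ide probes had differences of -0.16 and 0.04.

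**Figure D1:**
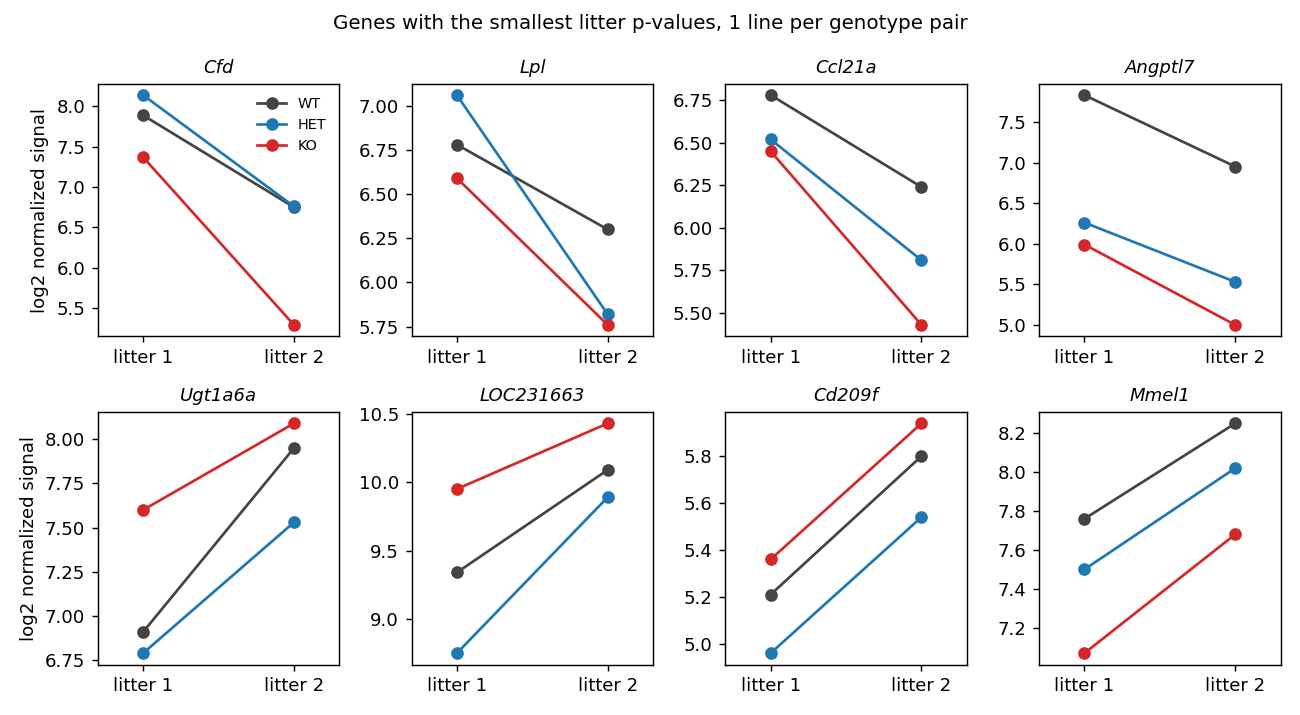
Log2 normalized signal (vertical axis, scaled separately per gene) of 8 genes named by their p-values, in litter 1 and litter 2, with 1 line for each genotype pair of mice. In the upper row (Cfd, Lpl, Ccl21a, Angptl7) every line goes down, and in the lower row (Ugt1a6a, LOC231663, Cd209f, Mmel1) every line goes up, while none passed the adjusted test.

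Ugt1a6a was among the genes with the smallest p and a higher level in litter 2. It encodes a UDP-glucuronosyltransferase, a member of an enzyme family that tags drugs, bilirubin and steroids for export. Its level was 6.91, 6.79 and 7.60 in WT, HET and KO of litter 1 and 7.95, 7.53 and 8.09 in litter 2. The KO mouse of litter 1 overlapped the litter 2 range, and the difference was 0.76 (SE 0.13, 95% interval 0.47 to 1.05, limma adjusted p = 0.39). The other probes of the Ugt1a cluster were read after these values were seen. Of 16 probes 7 were kept, and these 7 were higher in litter 2 in all 3 genotypes, by 0.33 to 0.76. The Ugt1a transcripts share their 3′ exons, so these probes may read 1 pool of RNA and are not independent. By pair their median was 0.61 in WT, 0.77 in HET and 0.27 in KO.

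Other genes with the smallest p and a higher level in litter 2 were LOC231663 (0.79), 4632412I06Rik (0.73), Cd209f (0.58), Gkn3 (0.57), Krtap17-1 (0.56), Sox14 (0.55), LOC381401 (0.55), Mmel1 (0.54), LOC384617 (0.52), 4732465J04Rik (0.49) and Pld3 (0.48), each a log2 difference with a limma adjusted p of 0.39. Cd209f, a C-type lectin of the DC-SIGN family, read 5.21, 4.96 and 5.36 in litter 1 and 5.80, 5.54 and 5.94 in litter 2, the same step of 0.58 in each pair. Mmel1, a neprilysin-like peptidase of the testis, read 7.76, 7.50 and 7.07 against 8.25, 8.02 and 7.68, with overlapping groups. LOC231663 read 9.34, 8.75 and 9.95 against 10.09, 9.89 and 10.43, with an overlap in which KO of litter 1 lay above HET of litter 2. Gkn3 and Krtap17-1 were dim, between 4.42 and 5.48 on all arrays. Gkn3 and 4732465J04Rik were each detected on 1 array of litter 1 and were kept through litter 2 alone.

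Among 350 genes with an unadjusted p under 0.01 and 1 sign in all pairs, 257 could be placed in the gene order, and 5 pairs of them were neighbours or had 1 gene between them. In 4 of these 5 pairs the difference read the same way in both members, as Igtp (-0.54) with Irgm2 (-0.60), which encode interferon-induced GTPases, Hipk4 (0.38) with Pld3 (0.48), Camk2a (0.55) with Slc6a7 (0.38), and Ugt1a10 (0.53) with Ugt1a9 (0.52). Slc25a47 (0.35) and Wdr25 (-0.43) had opposite signs. Igtp was kept through litter 1 alone, and the Ugt1a probes may read 1 pool of RNA. How often neighbours share a sign over all genes was not counted.

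Most differences past 2-fold between the litters belonged to 1 genotype pair rather than to all 3 pairs. Past 2-fold there were 32 probes between the WT mice (0.168%), 44 between the HET mice (0.231%) and 30 between the KO mice (0.158%). Of these probes 93 passed 2-fold in 1 pair, 5 in 2 pairs and 1, Cfd, in all 3. The count ignores sign. The Slpi probe and 2 Igfbp5 probes, described further on, went opposite ways in their 2 pairs. In the WT pair 4 were higher in litter 2 and 28 lower, in the HET pair 18 and 26, and in the KO pair 14 and 16. A pair is 1 array against 1, so its values carry no test.

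The HET mouse of litter 2 stood apart by transcripts of seminal vesicle secretion. Svs4 and Svs5 encode secreted proteins of the seminal vesicle, the gland that supplies most of the seminal plasma and of the copulatory plug. Svs4 read 5.77, 5.52 and 5.61 in WT, HET and KO of litter 1, and 5.79, 9.99 and 5.92 in litter 2. The litter 2 HET mouse was 22.1-fold above its litter 1 partner, and the other 5 arrays spanned 5.52 to 5.92. Svs5 read 8.19, 7.97 and 7.45 against 8.07, 9.64 and 7.02, again highest in that mouse, by 3.19-fold. The promoter windows of both genes are shown because both were high in the same single mouse. They are RefSeq windows on GRCm38.p6, 250 bases before to 50 after the start, with matches on either strand to 2 motifs in capitals. The half-site bound by the androgen receptor is searched as AGAACA, which reads as TGTTCT where it lies on the opposite strand. The core promoter box is searched as TATAAA, which reads as TTTATA where it lies on the opposite strand. The Svs4 window is chr2:164278258-164278557 on the minus strand, and the Svs5 window is chr2:164332515-164332814 on the plus strand.
Svs4: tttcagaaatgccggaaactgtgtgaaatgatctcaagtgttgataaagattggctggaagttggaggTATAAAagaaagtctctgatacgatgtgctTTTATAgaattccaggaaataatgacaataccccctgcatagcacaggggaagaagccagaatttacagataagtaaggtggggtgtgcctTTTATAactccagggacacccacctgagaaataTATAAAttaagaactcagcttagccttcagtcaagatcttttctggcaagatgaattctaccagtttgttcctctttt
Svs5: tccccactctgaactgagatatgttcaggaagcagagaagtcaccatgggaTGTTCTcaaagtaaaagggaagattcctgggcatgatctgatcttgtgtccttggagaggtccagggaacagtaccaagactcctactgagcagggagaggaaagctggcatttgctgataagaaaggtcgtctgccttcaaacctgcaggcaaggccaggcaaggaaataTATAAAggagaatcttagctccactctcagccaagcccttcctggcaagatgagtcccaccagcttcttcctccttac
The Svs4 window held 4 matches to the core promoter box and 0 to the half-site, and the Svs5 window held 1 of each, with no overlap between the motifs. Both had a match to the box starting 28 bases before the start. Over 32851 windows of this length 13.6% held that box and 19% the half-site on either strand, so a match describes the letters and shows no binding.

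Further genes of the same secretion were read in that mouse, chosen after their values were seen. Svs3b was 6.46 there and 4.29 to 4.89 on the other arrays, and Pate4, deposited under its older name Svs7, was 6.41 there and 4.23 to 4.29 elsewhere. Spink1, a trypsin inhibitor of seminal plasma deposited as Spink3, was 5.86 there and 4.20 to 4.35 elsewhere. Svs1 was 5.60 there and 4.22 to 4.34 elsewhere. These 4 were not among the kept probes, and except for Svs3b each was detected on that array alone. Svs6 read 5.30 in that mouse and 4.77 to 5.07 elsewhere, and Svs2 was not detected on any array. So 6 secretory genes had their highest reading in 1 mouse by over 2-fold against its partner, and whether tissue of the gland was carried into that sample was not tested.

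The same HET pair held the Klk1b kallikreins, a cluster of closely related serine proteases of which several are made by Leydig cells. Of 23 probes 18 were kept, and 8 of these were past 2-fold between the HET mice, 1 between the WT mice and 0 between the KO mice. Both Klk1b1 probes were among the 8, and 1 of them was the WT probe. They were kept through litter 2 alone and were not detected in HET of litter 1, which favoured a higher level in litter 2. Over the 18 kept probes the median difference was 0.98 in the HET pair, 0.21 in WT and -0.04 in KO. The brighter Klk1b27 probe read 11.01, 10.34 and 11.96 in litter 1 and 11.18, 11.41 and 11.89 in litter 2, with HET of litter 1 the lowest mouse. Klk1b22 read 7.82, 6.93 and 8.31 against 8.37, 8.74 and 7.78, with the same mouse lowest. Probes of such similar genes can bind each other's transcripts, so the members are not separate observations. Ass1, the argininosuccinate synthase of arginine synthesis, had the same order in litter 1, with 7.67, 7.15 and 8.98 against 7.93, 8.58 and 9.08.

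Of the 20 measured Leydig and steroidogenesis genes 11 were lowest in that mouse. In the HET pair 14 were higher in litter 2 and 6 lower. Of the 25 measured spermatid genes 22 were higher in the HET pair and 1 lower, and 0 were lowest in HET of litter 1. The share over all genes was not counted. Cyp17a1, which makes androgen precursors, read 12.24, 11.90 and 13.07 in litter 1 and 12.35, 12.51 and 13.05 in litter 2. The summed linear level of the Leydig list, which a few bright genes dominate, was 15170 in HET of litter 1, against 17020 to 28120 on the other 5 arrays. For the 9 measured androgen response genes, several of which are also Leydig genes, it was 10410 in that mouse and 13300 to 23780 elsewhere. These genes include Cyp17a1, Klk1b21, Klk1b24 and Klk1b27, so that sum repeats the values above and is not a separate observation. Whether the Klk1b values follow the Leydig cell content was not tested.

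Antigen presentation genes had the opposite order, highest in HET of litter 1. H2-Ab1 and H2-Eb1 encode chains of MHC class II, which presents peptides on macrophages, dendritic cells and B cells. The brightest H2-Ab1 probe read 8.23, 8.47 and 7.66 in litter 1 and 7.99, 7.35 and 7.63 in litter 2. H2-Eb1 read 6.32, 6.96 and 5.53 against 6.06, 5.56 and 5.84. The brighter probe of the class II invariant chain, deposited as Ii, read 7.43, 8.28 and 6.50 against 7.12, 6.86 and 6.61. In each the HET mouse of litter 1 was the highest of 6. Over the 12 kept class II probes the median difference was -0.93 in the HET pair, -0.10 in WT and 0.04 in KO, and 5 were past 2-fold in the HET pair and 0 in the others. The 16 kept class I probes, which also cross-react between genes, had medians of -0.65, -0.01 and 0.18 in the same order. Ccl8, a chemokine for monocytes, read 5.55, 6.24 and 4.96 against 5.40, 4.46 and 4.78, and was not detected in HET of litter 2, so the HET mice were at least 3.01-fold apart. The macrophage list, summed over 17 measured genes, was 3048 in HET of litter 1 and 2422 in HET of litter 2, within 2422 to 3794 over the 6 mice. In the HET pair 16 of these genes were lower in litter 2 and 1 higher, and the share over all genes was not counted. Their median difference was -0.25 in the HET pair, -0.20 in WT and 0.18 in KO. That list holds class II genes itself, and H2-Aa in it was kept through litter 1 alone. Of the 13 lymphocyte genes on the array 7 were detected on none of the 6 arrays and 3 were measured. These were Cd3d, Lck and Cd4, with differences in the HET pair of 0.06, -0.43 and 0.45.

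**Figure D2:**
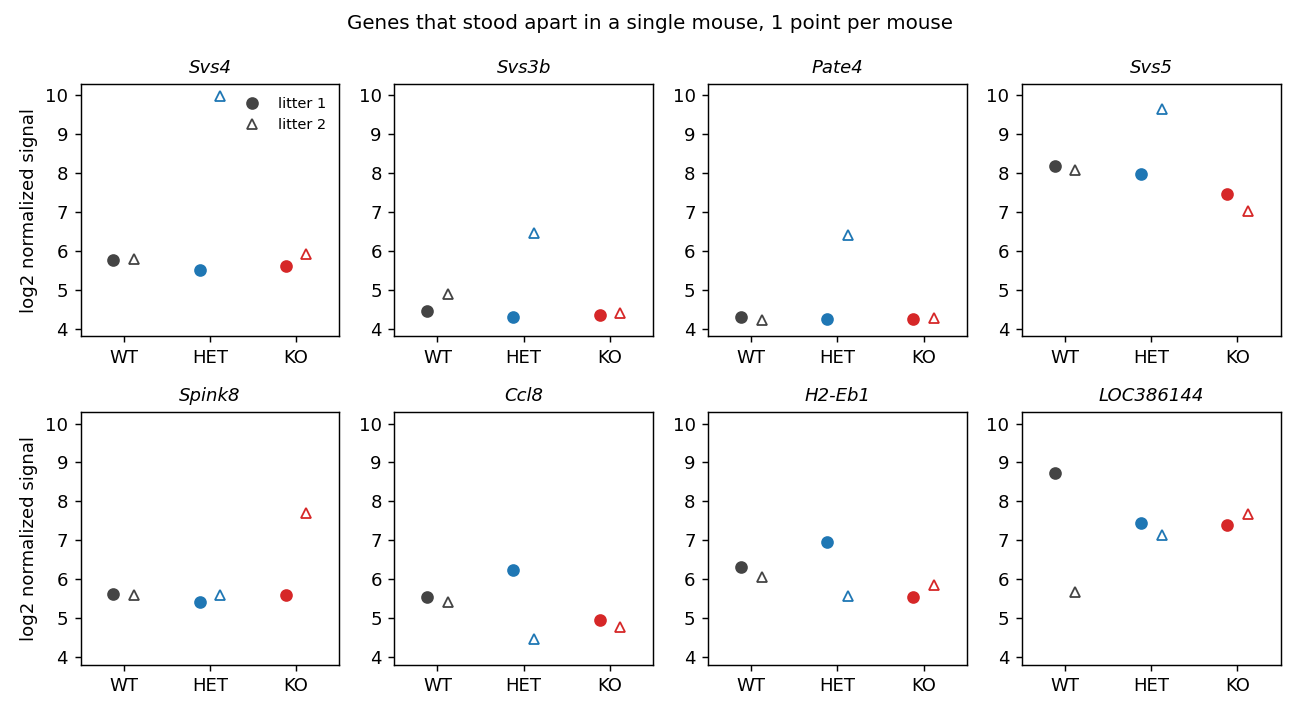
Log2 normalized signal (vertical axis) of 8 genes in the 6 mice, with genotype on the horizontal axis, filled circles for litter 1 and open triangles for litter 2. Svs4, Svs3b, Pate4 and Svs5 are highest in HET of litter 2, Spink8 in KO of litter 2, Ccl8 and H2-Eb1 in HET of litter 1, and LOC386144 is highest in WT of litter 1 and lowest in WT of litter 2.

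In the KO pair the largest single difference was Spink8, a Kazal-type protease inhibitor made in the epididymis. It read 5.61, 5.41 and 5.59 in litter 1 and 5.59, 5.58 and 7.71 in litter 2. The KO mouse of litter 2 was 4.33-fold above its partner, and the other 5 mice lay between 5.41 and 5.61. Of 15 epididymis genes 5 were measured, and the pair medians were -0.02 in WT, 0.04 in HET and 0.15 in KO. In the KO pair the measured genes besides Spink8 differed by 0.35 (Cst11), 0.15 (Lcn2), -0.11 (Defb21) and -0.50 (Defb30). The epididymis markers Adam7 and Lcn5 were each detected in KO of litter 2 alone, at 4.72 and 4.66, whereas Crisp1, Gpx5, Lcn8, Rnase10 and Spag11b were detected on no array. The part of epididymal tissue in the Spink8 value was not tested.

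Alas2, the erythroid enzyme that starts haem synthesis, read 7.71, 7.06 and 6.76 in litter 1 and 7.38, 7.39 and 8.00 in litter 2, so it was highest in the same KO mouse. The 10 kept haemoglobin probes had a median difference of 0.33 in the KO pair, -0.09 in HET and -0.34 in WT, and their litter differences over all pairs ran from -0.15 to 0.19. The WT and KO pairs thus went opposite ways. Catip read 4.53 in KO of litter 1, where it was not detected, and 5.81 in KO of litter 2, at least 2.34-fold apart, against 4.89 to 5.08 elsewhere. 9930031P18Rik read 7.15 in KO of litter 1 and 5.82 in KO of litter 2, with 6.48 to 6.97 on the other arrays.

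In the WT pair 28 of the 32 probes past 2-fold were lower in litter 2, and the 4 genes named by the rule were uncharacterised transcripts. LOC386144 read 8.73, 7.43 and 7.40 in litter 1 and 5.67, 7.13 and 7.68 in litter 2. The WT mouse of litter 1 was the highest and that of litter 2 the lowest, 8.32-fold apart, while HET and KO mice lay between. LOC385959 (4.61-fold), LOC386199 (4.01-fold) and LOC386268 (3.5-fold) had the same order of the WT mice. Of 215 probes whose deposited names begin with LOC386, a group chosen after values were seen, 39 were kept, with medians of -0.47 in the WT pair, -0.08 in HET and -0.07 in KO. Of these 39, 9 were past 2-fold in the WT pair and 0 in the others. The files do not say what these loci are. Both probes for 18S ribosomal RNA were lowest in WT of litter 2, at 13.35 against 14.38 to 14.85 and at 12.58 against 13.47 to 14.31. Their part in the LOC386 values was not tested. Pik3cd, a lipid kinase of leukocytes chosen after its values were seen, read 7.20, 7.22 and 6.91 in litter 1 and 4.24, 7.15 and 5.86 in litter 2, and was not detected in WT of litter 2.

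**Figure D3:**
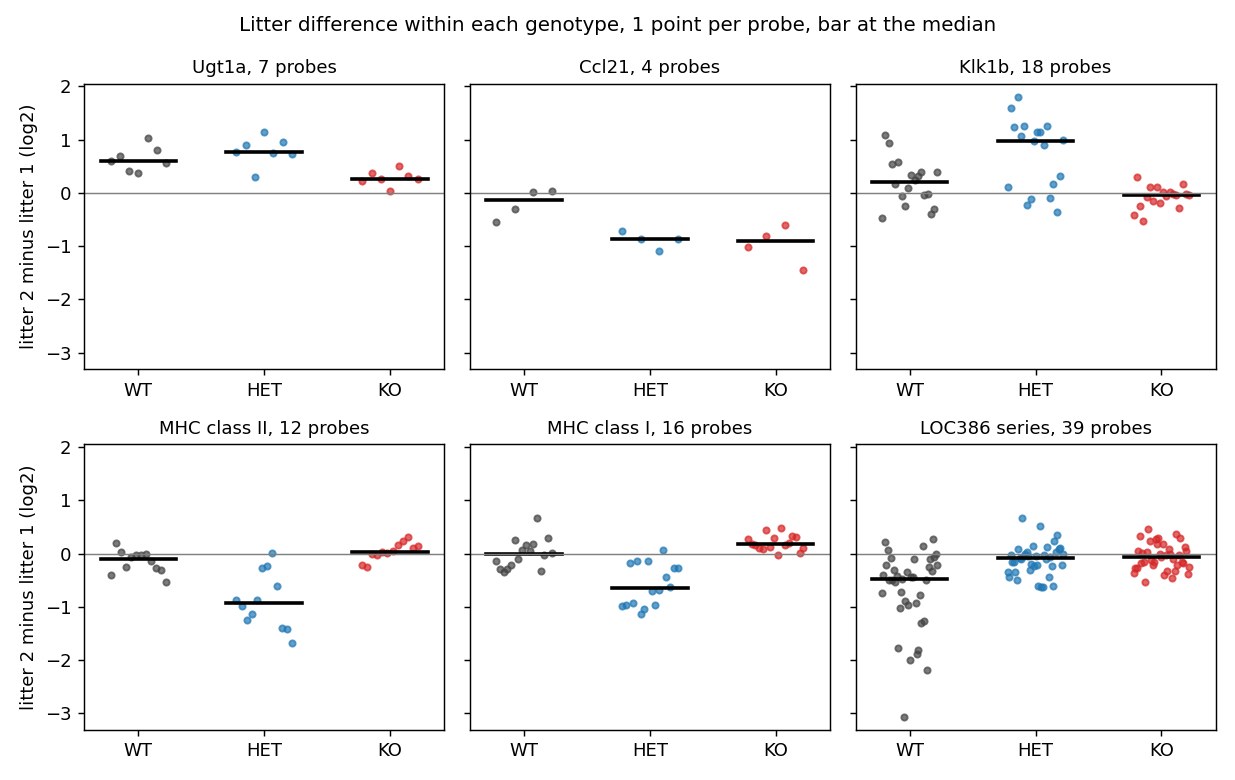
Litter 2 minus litter 1 on the log2 scale (vertical axis) within the WT, HET and KO pairs, with 1 point per kept probe and a bar at the median, for 6 gene groups. Ugt1a lies above 0 in all pairs, Ccl21 below 0 in the HET and KO pairs, Klk1b above and MHC class II and I below 0 in the HET pair at the median, and LOC386 below 0 in the WT pair at the median.

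The fixed gene lists were read by 1 probe per gene, beside 17.6% of all 13535 genes higher in litter 2 in all 3 genotypes, 17.3% lower and a median of 0.001. No member of any of the 25 lists passed the test. Median scaling of the arrays, in place of quantile normalization, moved the median of all probes to -0.09, so small list medians have no settled sign. Of 25 spermatid genes 11 were higher in all 3 genotypes and 1 lower, with a median of 0.12 (0.03 with median scaling). Spam1, the sperm hyaluronidase, read 10.49, 10.28 and 9.22 in litter 1 and 10.59, 10.74 and 9.88 in litter 2, so its groups overlapped. Acrv1, an acrosomal protein, read 12.43, 12.39 and 12.02 against 12.79, 12.75 and 12.16. The summed spermatid level was 177700 to 201900 in litter 1 and 181800 to 211000 in litter 2.

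Of 20 Leydig genes 6 were higher in all 3 genotypes and 2 lower, with a median of 0.17, which was 0.05 without the HET pair. Gsta3, a glutathione transferase with a role in steroid synthesis, read 9.80, 9.37 and 10.63 in litter 1 and 10.18, 10.21 and 10.97 in litter 2, a difference of 0.52 (SE 0.13, limma adjusted p = 0.39). Its groups overlapped, since KO of litter 1 lay above WT and HET of litter 2. Ephx1, an epoxide hydrolase, had the same difference of 0.52, and Prlr, the prolactin receptor, 0.42. Of the 9 androgen response genes 3 were higher in all 3 genotypes and 0 lower, with a median of 0.22, and 0.05 without the HET pair. Of 20 cholesterol synthesis genes 3 were higher and 3 lower (median 0.07), and Sc5d among the higher was kept through litter 2 alone.

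Among the other cell types, 7 of 20 Sertoli genes were higher in all 3 genotypes and 0 lower (median 0.06, and -0.04 with median scaling). One of them, the transcription factor gene Gata1, read 4.51, 4.39 and 4.80 in litter 1 and 5.29, 4.81 and 5.23 in litter 2. It was detected on 1 array of litter 1 and was kept through litter 2 alone, which favoured a higher level in litter 2. Spermatogonia had 3 higher and 1 lower of 11, spermatocytes 4 and 5 of 17, peritubular and smooth muscle 0 and 0 of 8, macrophages 0 and 3 of 17, lymphocytes 0 and 1 of 3, and endothelium 2 and 1 of 10. Red blood cells had 0 and 0 of 3, epididymis 0 and 0 of 5, and striated muscle 0 and 0 of 4. Among fibroblast and matrix genes 1 was higher and 4 lower of 14. The collagen gene Col1a1 read 6.31, 6.0 and 6.15 in litter 1 and 5.96, 5.47 and 5.33 in litter 2, without overlap and with a difference of -0.56 (SE 0.12, limma adjusted p = 0.39).

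Lists for conditions that a litter might share gave small medians. Of 15 glucocorticoid response genes 2 were higher in all 3 genotypes and 6 lower (median -0.04). Angptl4, a secreted inhibitor of lipoprotein lipase, read 7.17, 6.98 and 7.37 in litter 1 and 6.37, 6.56 and 6.95 in litter 2, without overlap and with a difference of -0.55 (SE 0.12, limma adjusted p = 0.39). The clock genes had 1 higher and 2 lower of 12, heat shock genes 0 and 2 of 12, and immediate early genes 1 and 4 of 14. Within the last list the AP-1 subunit gene Junb was higher by 0.42, and Jun, kept through litter 1 alone, had a difference of -0.36. Interferon and antigen presentation genes had 0 higher and 4 lower of 16 (median -0.09), and Igtp and Mx2 among them were kept through litter 1 alone. Replication-dependent histones had 13 higher and 4 lower of 37 (median 0.06, and -0.04 with median scaling), multicopy sex-linked spermatid genes 3 and 1 of 14, ribosomal proteins 4 and 9 of 41, and the respiratory chain 9 and 6 of 32.

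**Figure D4:**
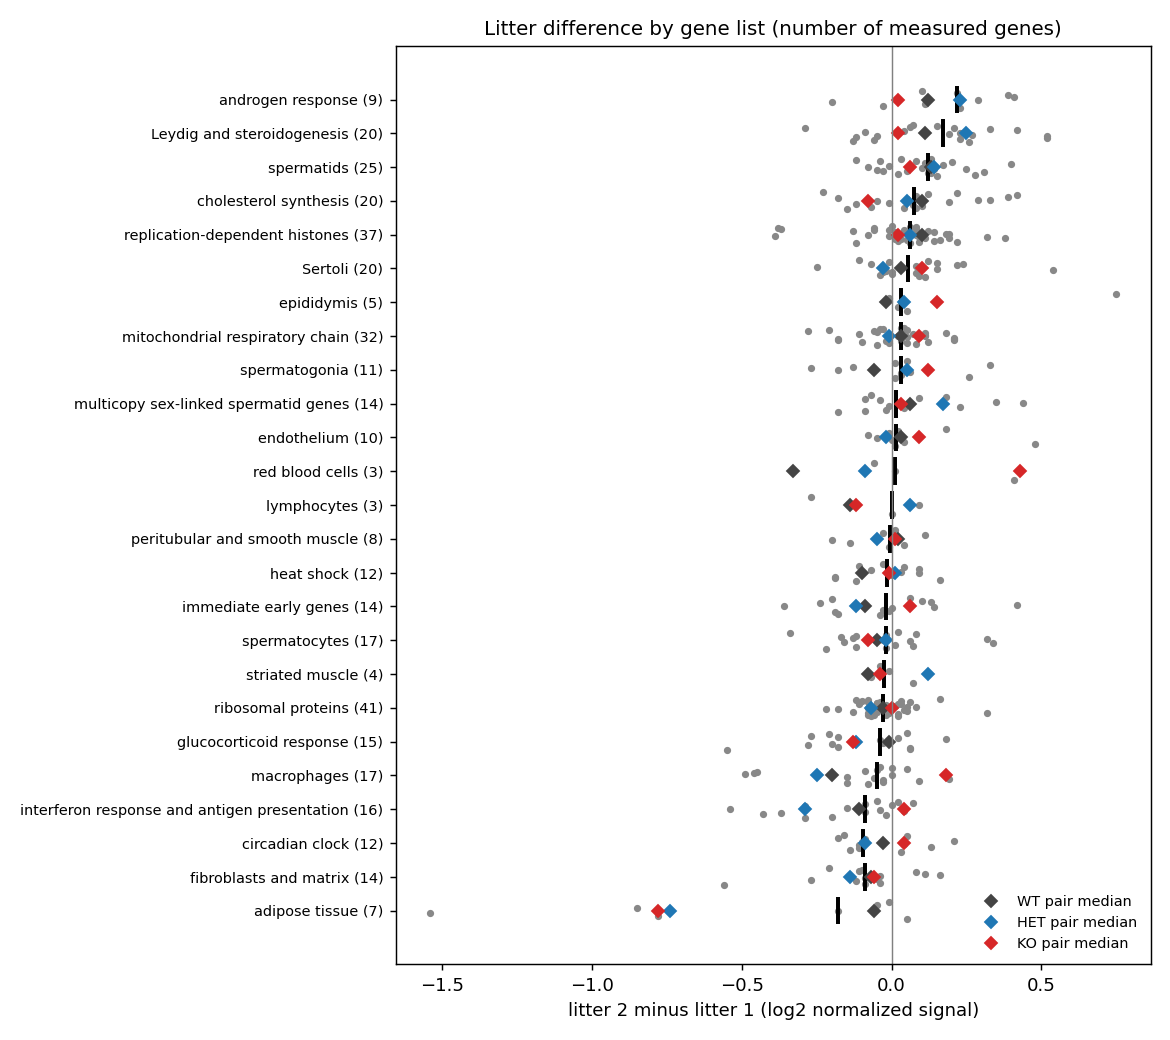
Litter 2 minus litter 1 on the log2 scale (horizontal axis) for the members of 25 gene lists (vertical axis, number measured in brackets), with grey points for genes, black bars for the list median and diamonds for the medians of the WT, HET and KO pairs. Most medians lie close to 0, the fat tissue list has the lowest at -0.18, and the red blood cell list has pair medians of -0.33 in WT and 0.43 in KO.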

How the data were processed

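Testis RNA of 6 mice was measured on 1 array each. The deposited table holds, per the file headers, an average bead intensity and a detection p-value for 45281 probes per array, from GenomeStudio per the submitters' processing notes. Its array medians ran from 95.9 to 101.9 and its sums differed, so it was treated as not normalized. A second deposited table holds the same intensity values multiplied by 1 factor per array, on a linear scale and not centred, which gives every array a mean of 374.5. Its medians were 94.3 (WT), 97.2 (HET) and 97.5 (KO) in litter 1 and 101, 105.4 and 99.8 in litter 2, and it served as an alternative. Background was corrected with limma 3.58.1 in R 4.3.3 (normexp, controls inferred from detection p, offset 16), then all 6 arrays were quantile normalized and put on the log2 scale. Probes with detection p under 0.05 on all 3 arrays of a litter were kept. lmFit and eBayes tested litter with genotype as the block (2 residual and 5.55 prior degrees of freedom, two-sided), with Benjamini-Hochberg adjustment over all kept probes. The pairing comes from the genotype labels. A difference is litter 2 minus litter 1.

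Each gene was read by its brightest kept probe. The genes named are the 12 per direction with the smallest p and 1 sign in all pairs (none was called), up to 3 per list by p, the 4 largest per genotype pair with the other pairs under 0.5, and H3f3b with H3f3a. Values of a few further genes and whole families were chosen after they were seen. The comparison and the 25 gene lists were chosen with earlier results of these data known. Of 31508 deposited symbols 13443 were current in a RefSeq table of GRCm38.p6, 8113 were updated and the rest kept as deposited. Bounds set an undetected probe at the higher of its own value and the lowest detected value per array. The code was tested on simulated data. Probe sequences were not used here, and the number of arrays limits the precision.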

Additional observations from a re-analysis of the deposited data

Results flagged for a closer look

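Slpi and Igfbp5 differed between the litters in opposite directions in the HET and KO pairs, by over 2-fold each way on 1 Slpi probe and 2 Igfbp5 probes. Slpi, a secreted leukocyte protease inhibitor, read 6.44, 6.80 and 5.22 in WT, HET and KO of litter 1 and 5.45, 4.73 and 6.69 in litter 2, so its difference was -2.07 in the HET pair and 1.46 in the KO pair, 3.53 apart. Igfbp5, a binding protein for insulin-like growth factors, read 6.37, 6.75 and 5.47 against 5.99, 5.10 and 6.59 on 1 probe, whose HET and KO differences were 2.77 apart. On another Igfbp5 probe (5.87, 6.27 and 4.97 against 5.49, 4.54 and 6.03) they were 2.78 apart. That probe was kept through litter 1 alone and was not detected in HET of litter 2, so the size of its HET difference is uncertain. With 1 mouse per genotype and litter the difference between the pairs was not tested.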

How the results depend on the processing

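The count of 0 litter calls was also obtained without the replicate block for genotype (727 probes at an unadjusted p under 0.05), with cyclic loess, a robust prior, no probe filter (3624 probes), a stricter detection filter, and with any 1 genotype pair left out. Other settings gave litter calls, 43 with median scaling (5 higher in litter 2), 5 without background correction (1 higher), 12 with an offset of 50 (3 higher), 64 with an intensity trend in the prior (32 higher) and 16 on the authors' scaled values (3 higher). The cause was not tested. Cfd, Upk3bl, LOC381625, LOC231663 and the dimmer Pisd-ps3 probe were called in all 5 of these settings. The count for the genotype term in the same fit, 621, was 2546 with median scaling, 3527 without background correction, 3356 with the offset of 50, 5 without the filter, 1735 with the stricter filter, 3622 with the trend and 4619 on the authors' scaled values. Leaving out a genotype gave 0 to 1783, by construction a test of fewer genotypes. Of the 108 genes named by the rule and tested, 15 turned sign under some setting. Leaving out each genotype pair gave -0.47 to 0.07 for Sall4, -0.22 to 0.02 for Des, -0.83 to 0.02 for H2-Eb1, -0.10 to 0.19 for Cd4, -0.04 to 0.07 for Cd3d, -0.25 to 0.10 for Hbb-b1, -0.21 to 0.13 for Hba-a1, -0.09 to 0.18 for Cst11, -0.08 to 0.09 for Defb21, -0.14 to 0.30 for Actn3, -0.14 to 0.10 for Tnnc2, -0.02 to 0.04 for H3f3a, -0.27 (without HET) to 0.78 for Svs5 and -0.05 (without KO) to 0.63 for Catip. Median scaling gave -0.11 for Hba-a1, -0.03 for Cst11, -0.09 for Defb21, -0.02 for Actn3 and -0.08 for H3f3a, cyclic loess 0.02 for Cd3d, and the authors' scaled values -0.04 for Hba-a1, 0.05 for Atp2a1, -0.02 for H3f3a and 0.06 for Tnnc2. The other 1302 values of named genes under an alternative kept their direction and side of the threshold, and 55 kept their direction and passed it. Of the list medians 299 moved by less than the spread between pairs and 26 by more. At the median standard error an unadjusted 95% interval reaches 0.256 to either side.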
